A study of Mus musculus with 32 samples.

Results

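Gene expression was compared between adult mice that were fed the highest and the lowest dose of doxycycline in a series on the splicing factor U2AF1. The comparison took 4 libraries at 10000 ppm (replicates 1 to 4) and 4 at 1250 ppm (replicates 1, 3, 4 and 5), which is 8 of the 32 libraries of the series and 8 of its 17 adult libraries, chosen by their labels. All 8 mice carried the Mx1-Cre and rTA transgenes, the tgU2AF1(WT) transgene and the endogenous alleles U2af1(flox/S34F), and received polyinosinic-polycytidylic acid (pIpC), so that the dose of doxycycline in the chow was the labelled difference. Values of the other adult groups are set beside them: 6 libraries at 2500 ppm with the same genotype and pIpC, and 3 untreated libraries with the same 3 transgenes and the endogenous alleles U2af1(wt/wt), which had neither agent. Each library held RNA of bone marrow cells that were Lin-, cKit+ and Sca1- in a sort, a fraction rich in committed blood progenitors.

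In these mice the Cre recombinase is driven by the Mx1 promoter, which responds to interferon, and pIpC induces interferon. Cre removes the floxed U2af1 allele in blood cells and in other tissues that respond to interferon, and the S34F allele is then the only endogenous copy left. A transgene of wild-type U2AF1 is switched on by doxycycline, so that a higher dose is meant to give more of the wild-type protein beside the mutant. U2AF1 is the small subunit of the U2AF complex, which reads the AG at the end of an intron before the spliceosome assembles. S34F is a recurrent mutation in myelodysplastic syndromes and acute myeloid leukemia, and it shifts which exons and splice sites are used. U2af1 was not analysed here, so the counts did not show how much of the transgene each dose produced. No group used here had doxycycline without the S34F allele, the labels name no batch for the adult libraries, and nothing says that the replicates of a dose came from separate mice, so p-values measure the spread between libraries.

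The libraries held 32532540 to 67490378 counts at 10000 ppm and 49691196 to 70002150 counts at 1250 ppm. Values are counts-per-million (CPM) after TMM scaling, which corrects for differences in composition (normalised CPM), and differences are log2 fold changes of 10000 ppm minus 1250 ppm. The sorted phenotype was met for Kit, at 376 to 760 CPM in the 8 libraries. Itgam, a surface marker of mature myeloid cells that the lineage depletion should remove, was at 201, 225, 51.7 and 17.1 CPM in 10000 ppm replicates 1 to 4 and at 28.8 to 38.8 CPM at 1250 ppm. Genes of the late neutrophil granules set the same libraries apart. The mean log2 CPM of 10 such genes, a list written after values were seen, was 9.88, 10.69, 7.51 and 4.89 in 10000 ppm replicates 1 to 4, and 4.65 to 5.84 at 1250 ppm. Replicates 1 and 2 therefore carried far more neutrophil RNA than any 1250 ppm library, replicate 3 carried an intermediate amount, and replicate 4 lay within the 1250 ppm range. Counts of called genes are for this reason also given without 10000 ppm replicates 1 and 2, a choice made after seeing the data, which leaves 2 libraries against 4 and so fewer calls by construction.

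**Figure D1:**
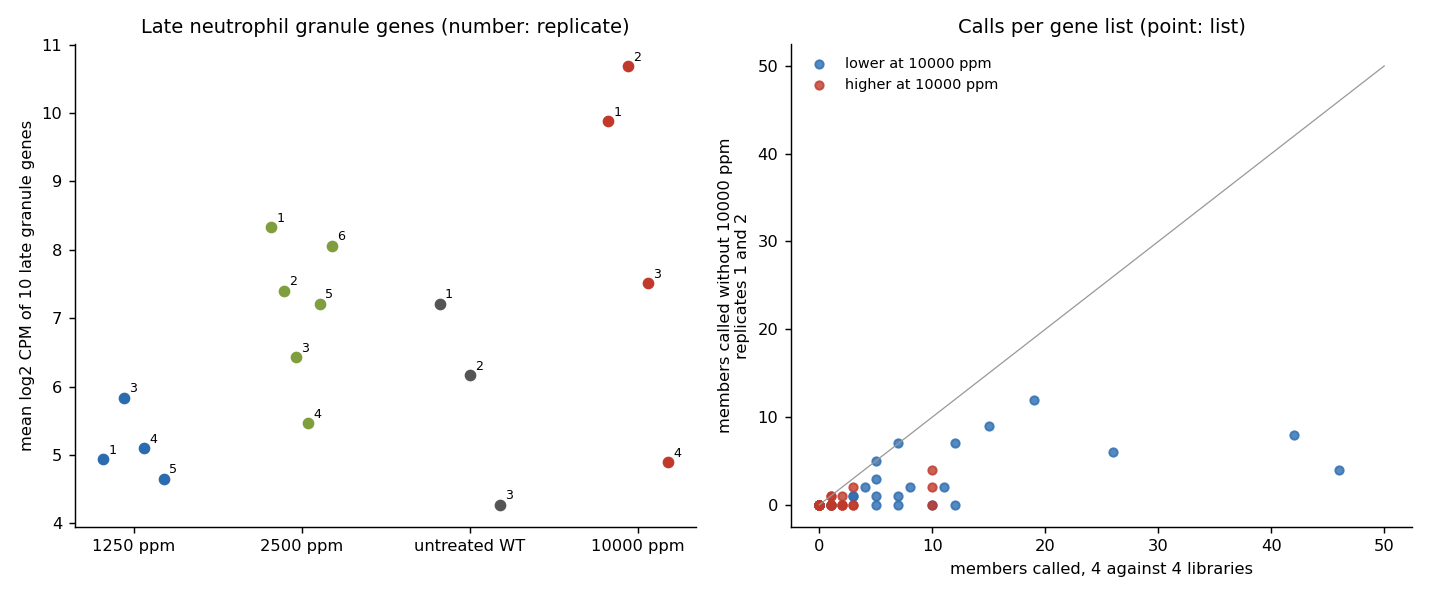
Left, mean log2 CPM of 10 late neutrophil granule genes in each adult library (numbers are replicates): 10000 ppm replicates 1 and 2 stand at 9.88 and 10.69, above all other libraries. Right, members called per gene list with all libraries (x axis) and without those 2 libraries (y axis), where points under the grey line of equality lost calls.

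Many genes differed between the 2 dose groups, mostly by small amounts. The quasi-likelihood test of edgeR was run on 13338 genes, of which 2420 (18.1%) passed a Benjamini-Hochberg adjusted p of 0.05 and are referred to as called, 1005 (7.53%) higher and 1415 (10.6%) lower at 10000 ppm. The smallest adjusted p was 0.00304. The excess of lower calls depended on the scaling and the tool, with 1102 higher and 1195 lower under RLE factors, 1112 and 1147 without genes over 1% of a library, and 1491 and 1492 with DESeq2, and it turned to 1258 higher and 983 lower without 10000 ppm replicate 3. The median size of a called difference was 0.48 on the log2 scale, and of the 654 called genes that differed at least 2-fold, 557 were higher and 97 were lower. The median over all tested genes was 0.018. The 4 values of one dose did not overlap the 4 of the other in 20.9% of tested genes, higher in 7.33% and lower in 13.6%. Without 10000 ppm replicates 1 and 2, 769 genes were called, 406 higher and 363 lower, of which 578 were also called with all libraries, all in the same direction. With 1 library left out, the count moved by over 1.5 times without 10000 ppm replicate 2 (1363) and without 1250 ppm replicate 1 (1396), replicate 4 (1387) or replicate 5 (1118).

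**Figure D2:**
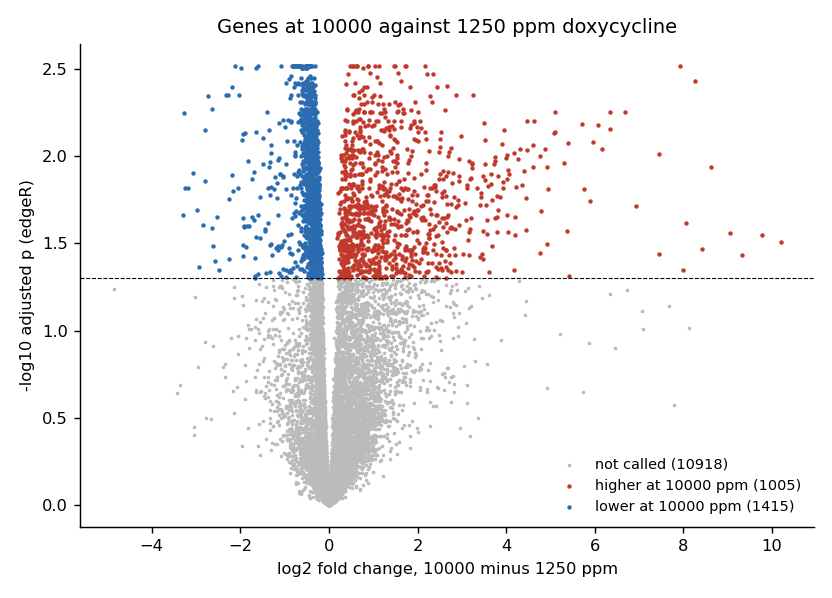
Each point is a tested gene, with its log2 fold change (10000 minus 1250 ppm) on the x axis and the negative log10 of its adjusted p from edgeR on the y axis; the dashed line marks an adjusted p of 0.05. The 1415 lower genes crowd near the centre, while the 1005 higher genes reach further out.

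**Figure D3:**
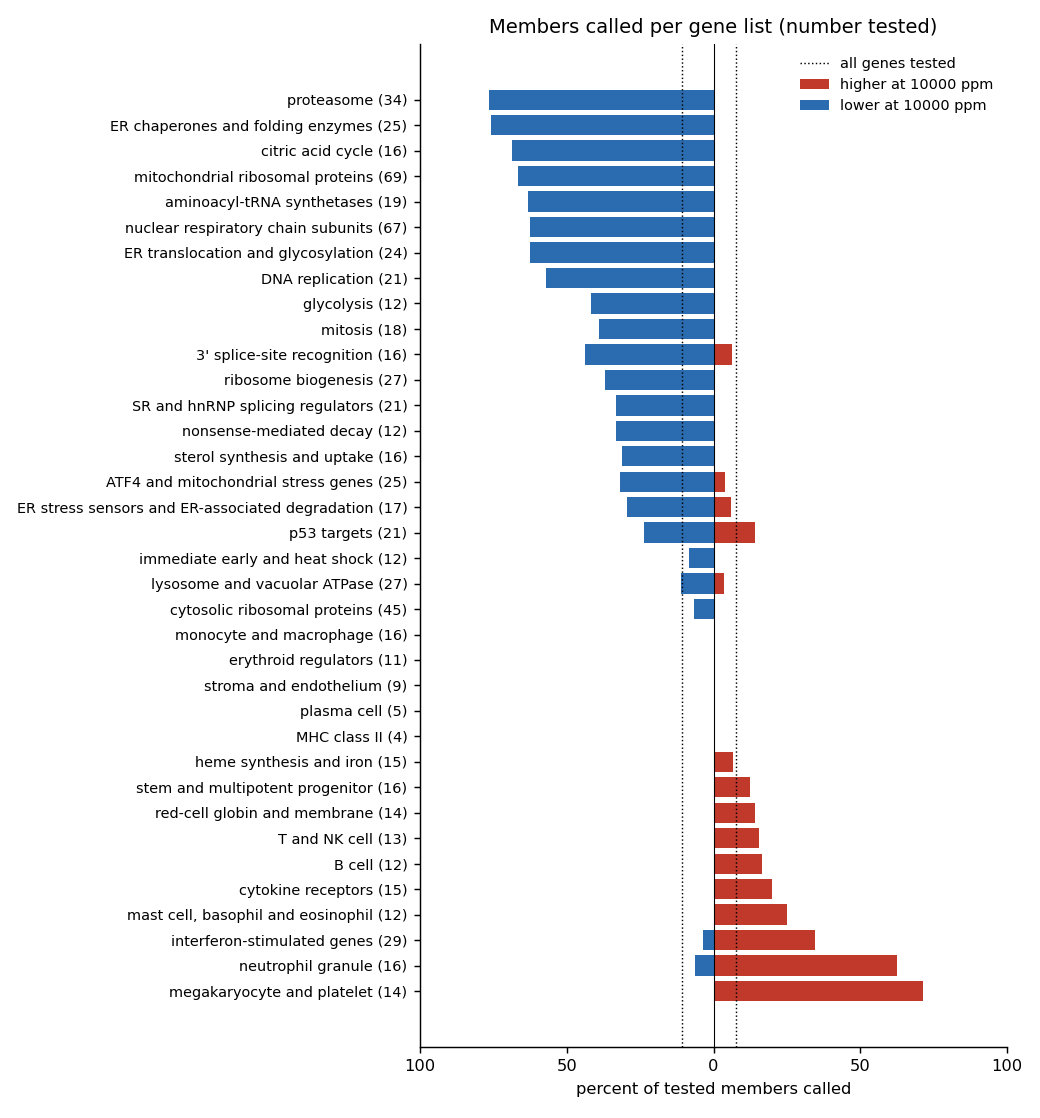
Percent of the tested members of each gene list that were called, to the left where lower and to the right where higher at 10000 ppm, with the number tested in parentheses. Dotted lines mark the shares over all tested genes, 10.6% lower and 7.53% higher.

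The endoplasmic reticulum (ER) folding machinery was lower at the high dose. This compartment folds and glycosylates secreted and membrane proteins, and its chaperones are controlled together by the unfolded protein response, in which the sensors Ire1, Perk and Atf6 report unfolded protein to the nucleus. Of 25 tested ER chaperones and folding enzymes of 28 listed, 19 were called lower and 0 higher, against 10.6% of all genes called lower, and their median difference was -0.51. This list was added after values were seen, as were the other ER lists and those of the proteasome, glycolysis and the citric acid cycle. The same holds for tRNA synthetases, cytosolic ribosomal proteins, ribosome biogenesis and the lysosome. Counts for these lists describe the data and are not an independent test. Without 10000 ppm replicates 1 and 2, the list had 12 members lower and 0 higher, with a median of -0.47. In bulk RNA, a lower level per cell and a smaller share of cells with high levels cannot be told apart.

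Several of these chaperones carry an ER stress response element in their promoters, a site bound by the transcription factors NF-Y and Atf6. The letters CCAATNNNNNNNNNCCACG, on either strand, were found in the 250 bases before the start of 7 of the 23 listed chaperones with a RefSeq promoter (30.4%), against 35 of 27025 genes (0.13%). They were found in 2 of 14 genes of stress sensing and ER-associated degradation and in 0 of 22 of ER translocation and glycosylation. The 7 were Hspa5, Pdia6, Calr, Creld2, Hsp90b1, Dnajc3 and Canx. The promoters of the first 5 are shown because they let the position of the shared letters be compared among chaperones that were lower. They are written 5′ to 3′ on the strand of the gene and end at the base before its start, with the bases CCAAT and CCACG (or CGTGG and ATTGG on the opposite strand) in capitals. The windows are from RefSeq on GRCm38.p6, Hspa5 at chr2:34771840-34772089 (plus strand), Pdia6 at chr12:17266339-17266588 (plus), Calr at chr8:84846932-84847181 (minus), Creld2 at chr15:88819396-88819645 (plus) and Hsp90b1 at chr10:86705445-86705694 (minus).
Hspa5: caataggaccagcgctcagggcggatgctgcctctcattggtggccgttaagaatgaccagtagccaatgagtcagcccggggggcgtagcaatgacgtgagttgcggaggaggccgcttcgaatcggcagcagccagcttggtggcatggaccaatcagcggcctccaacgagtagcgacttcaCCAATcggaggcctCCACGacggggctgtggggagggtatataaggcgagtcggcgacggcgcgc
Pdia6: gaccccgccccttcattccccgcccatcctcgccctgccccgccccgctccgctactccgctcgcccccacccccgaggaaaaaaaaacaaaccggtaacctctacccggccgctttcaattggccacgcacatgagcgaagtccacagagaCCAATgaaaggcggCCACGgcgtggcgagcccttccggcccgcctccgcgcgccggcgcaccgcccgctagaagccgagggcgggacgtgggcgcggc
Calr: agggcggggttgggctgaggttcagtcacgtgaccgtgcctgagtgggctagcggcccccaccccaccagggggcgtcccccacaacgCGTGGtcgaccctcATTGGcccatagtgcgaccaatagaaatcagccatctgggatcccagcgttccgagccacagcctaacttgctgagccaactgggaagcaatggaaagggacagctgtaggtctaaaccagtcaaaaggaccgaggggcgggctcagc
Creld2: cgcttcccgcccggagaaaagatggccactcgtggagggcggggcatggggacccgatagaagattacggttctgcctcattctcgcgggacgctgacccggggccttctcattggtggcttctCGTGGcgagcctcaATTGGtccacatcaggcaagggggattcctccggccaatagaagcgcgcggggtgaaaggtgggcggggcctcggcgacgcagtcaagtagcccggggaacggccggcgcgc
Hsp90b1: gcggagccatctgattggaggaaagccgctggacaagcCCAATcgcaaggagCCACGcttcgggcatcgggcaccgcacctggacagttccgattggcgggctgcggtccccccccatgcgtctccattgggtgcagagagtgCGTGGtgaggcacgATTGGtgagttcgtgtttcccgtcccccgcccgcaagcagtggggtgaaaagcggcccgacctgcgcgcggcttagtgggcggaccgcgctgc
The match starts 65 bases before the RefSeq start of Hspa5, 98 before Pdia6, 162 before Calr and 126 before Creld2. Hsp90b1 holds 2 matches, at 212 and 107 bases. Gene positions elsewhere in the text are from GENCODE, whose starts can differ. The GENCODE gene of Hspa5 starts inside its window and upstream of the match, so the match lies within that gene. For Pdia6 the GENCODE start also lies inside the window, but after the match. All 7 chaperones were called lower. Over all 15 tested genes with a match, 9 were called lower and 0 higher, with a median of -0.51, against 10.6% of all genes called lower. Of these 9, 7 are the listed chaperones, so the count largely repeats that of their list. In the ER translocation and glycosylation list, with 0 of 22 matches, 15 of 24 tested genes were called lower. Whether a match goes with a lower level was not tested. A match describes the letters of a window and does not show that a factor was bound there.

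Hspa5 (BiP, ENSMUSG00000026864, chromosome 2, 34771970 to 34777547, GRCm38), the main Hsp70 of the ER, was at 1326, 1371, 1549 and 1061 CPM in 10000 ppm replicates 1 to 4 and at 1792, 2043, 1987 and 2468 CPM in 1250 ppm replicates 1, 3, 4 and 5. The groups did not overlap, and the difference was -0.64 ± 0.12 (SE), with an adjusted p of 0.00488 from edgeR. Hyou1 (ENSMUSG00000032115, chromosome 9, 44379490 to 44392369), a nucleotide exchange factor for that chaperone, was at 774, 692, 842 and 628 CPM at 10000 ppm and at 1198, 1159, 1143 and 1486 CPM at 1250 ppm. It fell by 0.76 ± 0.11 on the log2 scale (adjusted p 0.00304, edgeR), again with every high-dose library below every low-dose library. Calreticulin (Calr, chromosome 8), a calcium-binding lectin chaperone of glycoproteins, was at 2760, 2588, 3383 and 2483 CPM at 10000 ppm and at 4349, 4235, 4092 and 5241 CPM at 1250 ppm. Its difference was -0.68 ± 0.11 (adjusted p 0.00304, edgeR). In all 3 genes replicate 4 of the high dose was the lowest library and replicate 5 of the low dose the highest. Hspa5, Calr and the other genes with a match, apart from Pdia6, were picked after their values were seen.

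Pdia6, a protein disulfide isomerase, which forms and rearranges disulfide bonds, had 446, 377, 565 and 393 CPM at 10000 ppm and 742, 769, 719 and 888 CPM at 1250 ppm, a difference of -0.81 ± 0.12 (adjusted p 0.00304, edgeR). Pdia4 (-0.66), Pdia5 (-0.79) and Prkcsh (-0.44), the latter a subunit of the glucosidase that trims glycans in the ER, were called at the same adjusted p. Manf, a secreted factor retained in the ER, fell from 326 ± 48.3 to 190 ± 33.3 CPM (SD, n = 4), by 0.78 on the log2 scale. The values of these 4 genes did not overlap between the doses, and each was called in every fit with 1 library left out. Manf shares part of its locus with Rbm15b, so some of its counts may belong to that gene. Dnajb9, a co-chaperone, was the one tested member above 0, at 0.03 with an adjusted p of 0.93. The sensors of the response were not called: Atf6 differed by -0.12 ± 0.09, Ern1 (Ire1) by 0.13 ± 0.13 and Eif2ak3 (Perk) by -0.08 ± 0.12, nor was Ddit3 (Chop), a target of Perk signaling, at 0.02 ± 0.22, and these genes too were picked after their values were seen.

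Per library, the median of the 25 chaperones relative to the 1250 ppm mean was -0.43, -0.67, -0.26 and -0.82 in 10000 ppm replicates 1 to 4, and -0.03, -0.06, -0.11 and 0.17 at 1250 ppm. The libraries at 2500 ppm lay between -0.37 and -0.11 and the untreated wild type between -0.25 and -0.14. The 10000 and 1250 ppm groups did not overlap, and the 2500 ppm and untreated libraries spanned the gap between them. Replicate 4, the high-dose library without excess neutrophil RNA, was the lowest of all 17 adult libraries.

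Genes that bring proteins into the ER were lower too. Of 24 tested genes of ER translocation and glycosylation, 15 were called lower and 0 higher, against 10.6% of all genes called lower. Their median was -0.39, and 9 were lower and 0 higher without 10000 ppm replicates 1 and 2. Srprb, a subunit of the receptor that docks ribosomes at the ER, was at 40.5, 33.0, 47.9 and 42.3 CPM at 10000 ppm and at 68.4, 57.5, 64.6 and 72.6 CPM at 1250 ppm. No value overlapped, and the difference was -0.68 ± 0.10 (adjusted p 0.00304, edgeR). Its partner Srpr (-0.42), the ribosome receptor Lrrc59 (-0.75), the translocon-associated Ssr2 (-0.60) and Ddost (-0.53), a subunit of the oligosaccharyltransferase, were called as well. Of 17 genes of stress sensing and ER-associated degradation, 5 were called lower and 1 higher, against 10.6% and 7.53% of all genes. Their median was -0.19, and 11 were not called. The lower genes were Edem2 (-0.51), which sorts misfolded glycoproteins, Herpud1 (-0.60), Syvn1 (-0.53), the ubiquitin ligase of the pathway, its partner Sel1l (-0.33) and Derl1 (-0.16). Sel1l was called in 4 of 8 fits that left out 1 library (not without 10000 ppm replicate 2 or 4 or 1250 ppm replicate 1 or 5) and Derl1 in none, and 3 members were called without 10000 ppm replicate 2, 1250 ppm replicate 1 or 1250 ppm replicate 5.

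**Figure D4:**
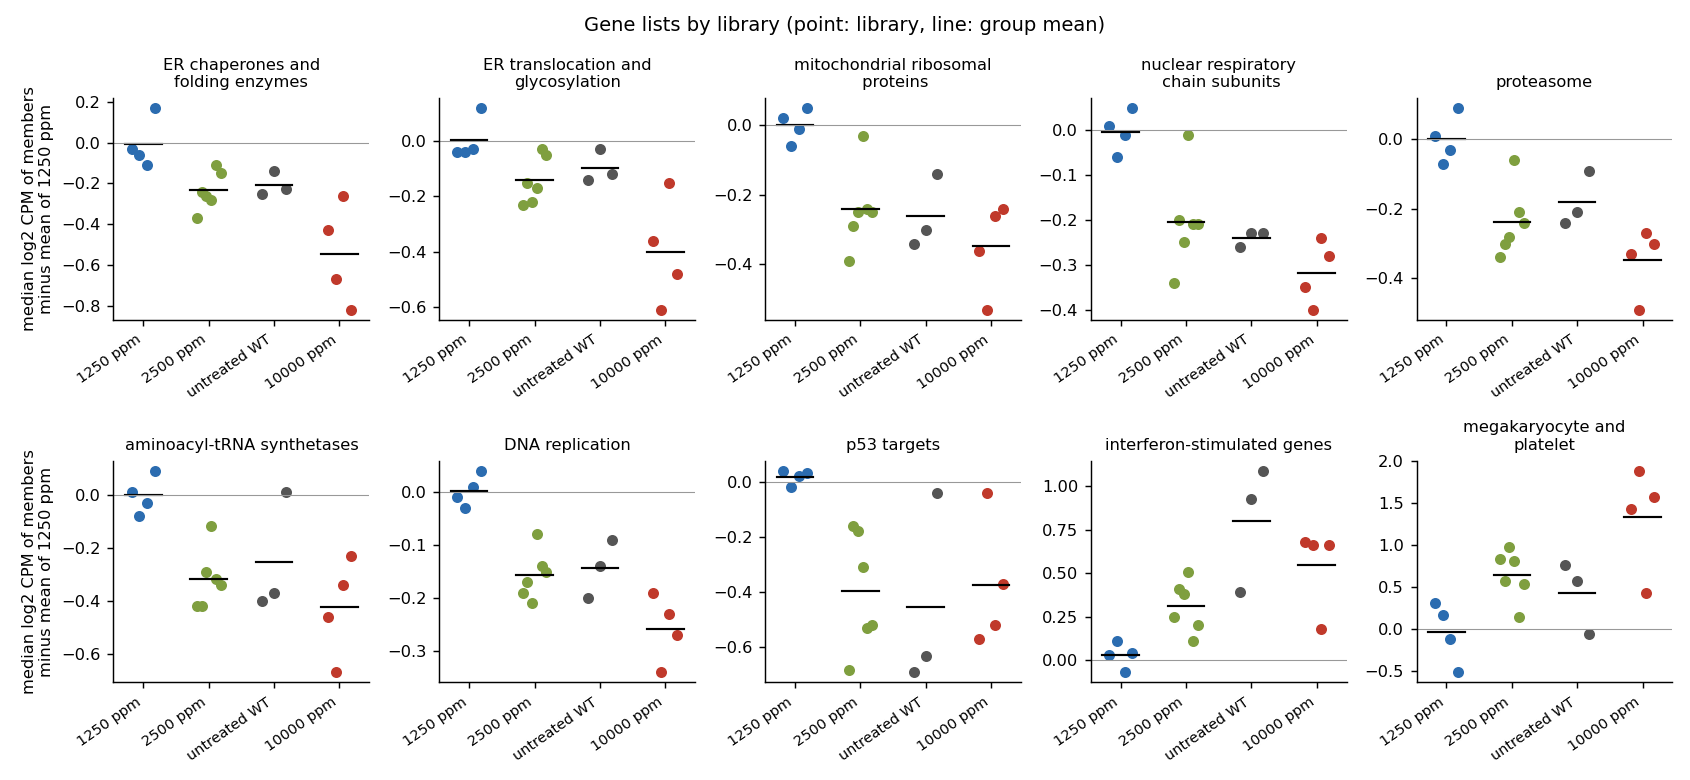
Median over the members of 10 gene lists of log2 CPM minus its mean at 1250 ppm (y axis), with 1 point per adult library and a line at each group mean. For the ER chaperones the 10000 ppm libraries lie between -0.82 and -0.26 and the 1250 ppm libraries between -0.11 and 0.17; the megakaryocyte and interferon lists lie mostly above 0 at 10000 ppm.

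The proteasome, which degrades ubiquitin-tagged protein, was lower across its subunits. Of 34 tested subunits, 26 were called lower and 0 higher, against 10.6% of all genes called lower, with a median of -0.34. Psmd2, a scaffold of the regulatory particle (ENSMUSG00000006998, chromosome 16, 20651652 to 20663414), was at 357, 316, 373 and 370 CPM at 10000 ppm and at 492, 460, 480 and 532 CPM at 1250 ppm. Its groups did not overlap, with a difference of -0.47 ± 0.08 (adjusted p 0.00304, edgeR). The ATPase subunits Psmc1 (-0.54), Psmc3 (-0.40) and Psmc4 (-0.40) and the core subunits Psmb2 (-0.41) and Psmb4 (-0.36) fell by similar amounts. Without 10000 ppm replicates 1 and 2, 6 subunits were called lower, with a median of -0.24. With 1 library left out, 16 were called without 10000 ppm replicate 2, and 17, 14 and 13 without 1250 ppm replicates 1, 4 and 5.

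Genes of mitochondrial protein synthesis and respiration were also lower. All of these proteins are encoded in the nucleus, and mitochondrially encoded genes were not analysed here. Of 69 mitochondrial ribosomal proteins, 46 were called lower and 0 higher, against 10.6% of all genes called lower. Their median was -0.34, with 1 member above 0. Mrps5 (ENSMUSG00000027374, chromosome 2, 127587222 to 127606829), a protein of the small subunit, was at 70.8, 64.5, 80.4 and 88.3 CPM at 10000 ppm and at 121, 108, 111 and 117 CPM at 1250 ppm. No library of the high dose reached the low-dose range, and the difference was -0.59 ± 0.11 (adjusted p 0.00447, edgeR). Mrpl44 (-0.46), Mrpl51 (-0.43) and Mrpl43 (-0.32) of the large subunit were called with and without 10000 ppm replicates 1 and 2, whereas over the list 4 members were called without those libraries, with a median of -0.23. With 1 library left out, 20 to 30 members were called, except without 10000 ppm replicate 4, which left 44. Per library the list median was -0.36, -0.53, -0.26 and -0.24 at 10000 ppm. The untreated wild type lay at -0.34, -0.30 and -0.14, within or just above that range.

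Of 67 nuclear subunits of the respiratory chain and ATP synthase, 42 were called lower and 0 higher, with a median of -0.29. Over all tested genes, 10.6% were called lower. Uqcrc1, a core protein of complex III, was at 338, 304, 336 and 316 CPM at 10000 ppm and at 431, 406, 456 and 508 CPM at 1250 ppm. The groups were apart, by -0.48 ± 0.08 (adjusted p 0.00381, edgeR). Cyc1, the cytochrome c1 of the same complex (-0.49), Uqcr11 (-0.56), Cox6b1 of cytochrome oxidase (-0.40) and Atp5l of ATP synthase (-0.33) fell too. Without 10000 ppm replicates 1 and 2, 8 members were called, with a median of -0.22, and 20 or 23 were called without 1250 ppm replicate 4 or 5. In the citric acid cycle, with its feeding and shuttle enzymes, 11 of 16 genes were called lower and 0 higher, with a median of -0.31. Got2, an aminotransferase of the malate-aspartate shuttle, was at 259, 241, 289 and 309 CPM at 10000 ppm and at 468, 411, 414 and 504 CPM at 1250 ppm, a gap between the groups of -0.71 ± 0.11 (adjusted p 0.00304, edgeR). Mdh2 (-0.40) and citrate synthase (Cs, -0.36) were smaller differences. That list had 2 members called without 10000 ppm replicates 1 and 2, 7 without 10000 ppm replicate 2 or 3 or 1250 ppm replicate 3, and 6 without 1250 ppm replicate 4 or 5. In glycolysis 5 of 12 genes were called lower and 0 higher, and 5 were called without 10000 ppm replicates 1 and 2, when Pfkl was no longer among them (adjusted p 0.118, edgeR). Pfkp, a subunit of phosphofructokinase, fell by 0.77 and the triose isomerase Tpi1 by 0.48 on the log2 scale.

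Many aminoacyl-tRNA synthetases and some ribosome biogenesis genes were lower with all libraries, and none of either list was called without 10000 ppm replicates 1 and 2. Of 19 aminoacyl-tRNA synthetases, which charge tRNA with amino acids, 12 were called lower and 0 higher, with a median of -0.41. Over all tested genes, 10.6% were called lower. Tars was at 111, 90.3, 119 and 124 CPM at 10000 ppm and at 171, 155, 161 and 190 CPM at 1250 ppm, without overlap, a difference of -0.60 ± 0.13 (adjusted p 0.0071, edgeR). None of the 19 was called without 10000 ppm replicates 1 and 2, where their median was -0.23, and 7, 7 and 6 were called without 10000 ppm replicate 1, 1250 ppm replicate 3 and 1250 ppm replicate 5. Of 27 ribosome biogenesis genes, 10 were called lower and 0 higher, with a median of -0.37, among them Bop1 (-0.62) and Nhp2 (-0.59), the latter a protein of H/ACA small nucleolar complexes. Here too 0 were called without 10000 ppm replicates 1 and 2, and the median was -0.11. With 1 library left out the biogenesis count was 6, 3 and 19 without 10000 ppm replicates 1, 2 and 4, and 5, 3 and 3 without 1250 ppm replicates 1, 4 and 5. The median of that list by library was -0.54, -0.77, -0.23 and -0.07 in 10000 ppm replicates 1 to 4. Cytosolic ribosomal proteins stood near the background, with 3 of 45 called lower (5 without 10000 ppm replicate 4), 0 higher and a median of -0.11, and their counts may be shared with processed copies elsewhere in the genome. Rps27l, the member of that list with the smallest p, fell by 0.62 on the log2 scale; it is also known as a p53 target.

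**Figure D5:**
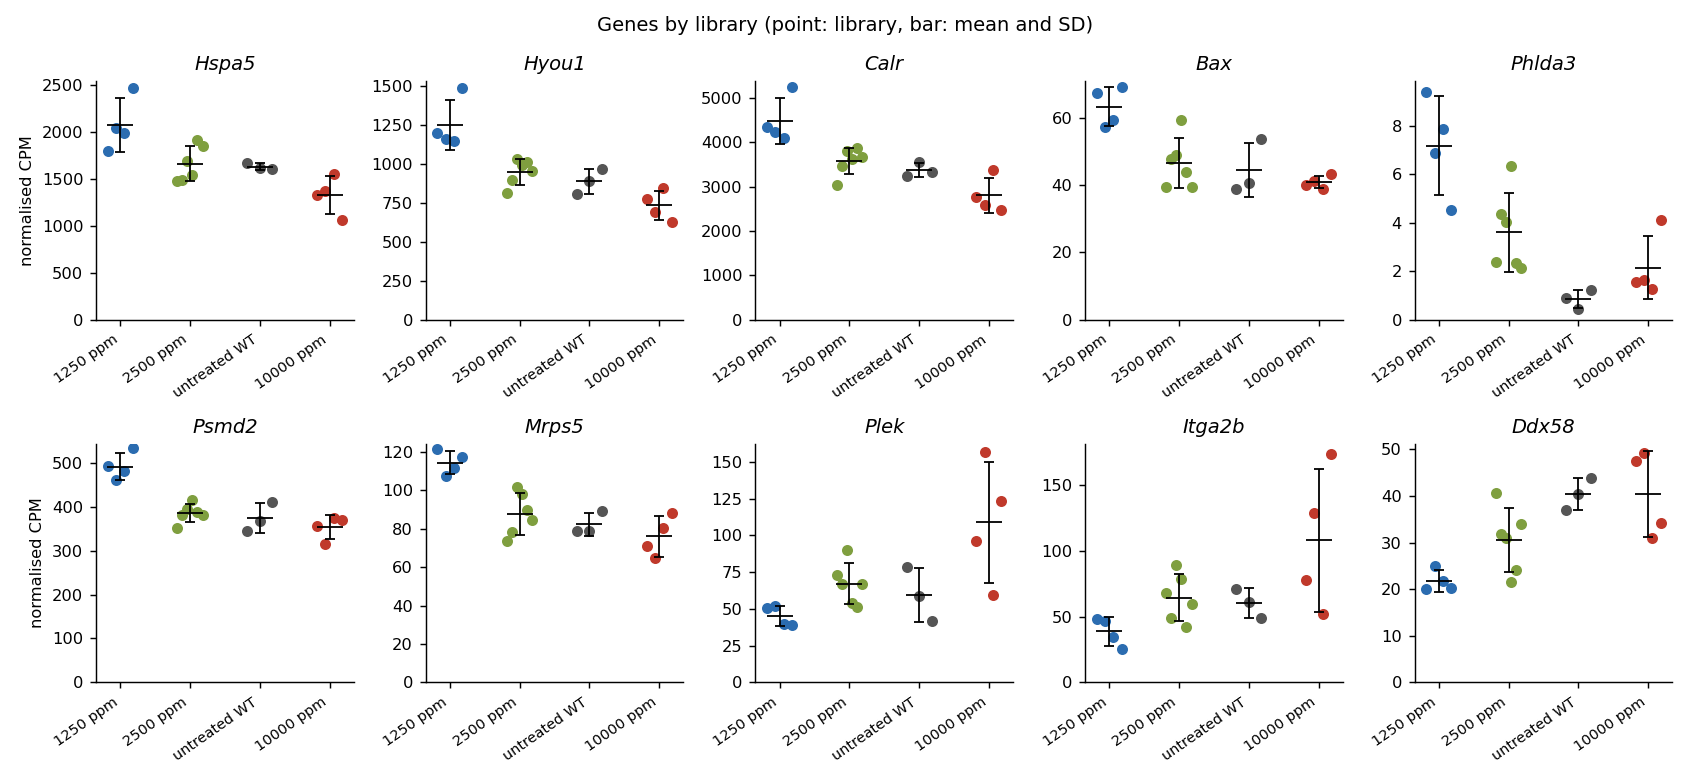
Normalised CPM of 10 genes in each adult library (points), with the mean and SD of each group. Hspa5, Hyou1, Calr, Bax, Psmd2 and Mrps5 are lower and Plek, Itga2b and Ddx58 higher at 10000 than at 1250 ppm with no overlap, and Phlda3 in 10000 ppm replicate 4 (4.11 CPM) comes close to its lowest 1250 ppm library (4.53 CPM).

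Genes that license and copy DNA were modestly lower. Of 21 replication genes, 12 were called lower and 0 higher, against 10.6% of all genes called lower. Their median was -0.27, with no member above 0. Mcm3, a subunit of the replicative helicase, was at 544, 519, 563 and 553 CPM at 10000 ppm and at 675, 676, 693 and 708 CPM at 1250 ppm. The spread within each group was small against the gap, and the difference was -0.34 ± 0.06 (adjusted p 0.00447, edgeR). The loading factors Cdt1 (-0.35) and Cdc6 (-0.37) were called as well, and 7 members were called without 10000 ppm replicates 1 and 2. Of 18 mitotic genes, 7 were called lower and 0 higher, with a median of -0.19. Plk1, a kinase of mitotic entry and exit, was at 165, 142, 125 and 110 CPM at 10000 ppm and at 191, 170, 186 and 211 CPM at 1250 ppm, lower without overlap by -0.48 ± 0.11 (adjusted p 0.00899, edgeR). Aurka (-0.46), Aurkb (-0.31), Cdc20 (-0.44) and Ccnb1 (-0.38) were called, while Mki67 (0.20, adjusted p 0.224), Top2a (-0.02, 0.934) and Cdk1 (-0.22, 0.0612) were not. The mitotic count was 7 without 10000 ppm replicates 1 and 2, and the median was then -0.26.

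Partners of U2AF1 at the splice site were slightly lower. Of 16 genes of splice-site recognition, 7 were called lower and 1 higher, against 10.6% and 7.53% of all genes, with a median of -0.18. U2af2 (ENSMUSG00000030435, chromosome 7, 5062143 to 5079938), the large subunit of the complex, was at 291, 281, 277 and 281 CPM at 10000 ppm and at 372, 309, 349 and 367 CPM at 1250 ppm. The groups did not overlap, with a difference of -0.31 ± 0.07 (adjusted p 0.00935, edgeR), and U2af2 was at 286 ± 19 CPM at 2500 ppm (SD, n = 6) and 304 ± 15.2 CPM in the untreated wild type (SD, n = 3). The branch-site factors Sf3a1 (-0.37) and Sf3a2 (-0.38) fell, and Zrsr1, a paralog of U2AF1, was the gene that rose, from 13.5 ± 1.83 to 19.9 ± 3.46 CPM (SD, n = 4). Zrsr1 was not called without 10000 ppm replicate 2 or 1250 ppm replicate 5. None of the 16 was called without 10000 ppm replicates 1 and 2, where the median was -0.14, and 5 were called without 1250 ppm replicate 4 or 5. Among 21 SR and hnRNP regulators 7 were called lower and 0 higher, among them Ptbp1 (-0.39), Srsf9 (-0.37), Srsf1 (-0.34) and Tra2b (-0.28). Their count was 4 without 10000 ppm replicate 2 or 1250 ppm replicate 1, 3 or 4, and 1 without 10000 ppm replicates 1 and 2. Of 12 genes of nonsense-mediated decay, which removes transcripts with early stop codons, 4 were lower and 0 higher, with Eif4a3 of the exon junction complex at -0.41 and a list median of -0.06.

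Targets of p53, which responds to DNA damage and to faults in ribosomes and splicing, moved in both directions. Of 21 tested targets, 5 were called lower and 3 higher, against 10.6% and 7.53% of all genes, with a median of -0.31. Bax, a pore-forming inducer of apoptosis (ENSMUSG00000003873, chromosome 7, 45461697 to 45466898), was at 40.0, 41.1, 38.9 and 43.2 CPM at 10000 ppm and at 67.3, 57.4, 59.2 and 69.2 CPM at 1250 ppm. The high-dose libraries lay close together and well below the others, by -0.63 ± 0.13 (adjusted p 0.0058, edgeR), next to 46.5 ± 7.48 CPM at 2500 ppm (SD, n = 6) and 44.3 ± 8.04 CPM in the untreated wild type (SD, n = 3). Phlda3, an inhibitor of Akt, was at 1.56, 1.66, 1.28 and 4.11 CPM at 10000 ppm and at 9.41, 6.89, 7.89 and 4.53 CPM at 1250 ppm, a difference of -1.73 ± 0.43 (adjusted p 0.0136, edgeR). The death receptor Tnfrsf10b (-1.10), Zmat3 (-1.19) and Eda2r (-1.41) were the other lower targets, and Zmat3 was called in 1 of 8 fits that left out a library, the one without 10000 ppm replicate 4. Rrm2b (0.55), a ribonucleotide reductase subunit, Trp53inp1 (0.83) and Btg2 (1.24) were higher. Rrm2b lost its call without 10000 ppm replicate 1 or 2 or 1250 ppm replicate 5, and Trp53inp1 without 10000 ppm replicate 2 or 1250 ppm replicate 1 or 5. Mdm2 (0.05, adjusted p 0.84), Ccng1 (-0.33, 0.0616) and Cdkn1a (-0.76, 0.0699) were not called. No target was called without 10000 ppm replicates 1 and 2, although the median was then -0.45. With 1 library left out, 3 to 5 targets were called, except without 10000 ppm replicate 3 or 4, which kept the count within 1.5 times of 8.

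The integrated stress and sterol programs were also lower in part. Of 25 genes of Atf4 and of the mitochondrial stress response, 8 were called lower and 1 higher, against 10.6% and 7.53% of all genes. Their median was -0.41. Lonp1, a protease of the mitochondrial matrix (-0.46), Shmt2, a serine hydroxymethyltransferase (-0.64), Clpp (-0.48) and Psat1 of serine synthesis (-0.62) were free of overlap, and each was called in all 8 fits with a library left out. Lonp1 and the transcription factor Atf5 (-0.74) were also called without 10000 ppm replicates 1 and 2, where 2 members were lower and 1 higher, but Atf5 was not called without 1250 ppm replicate 5. Atf4 itself (0.02 ± 0.20) and its target Asns (-0.41, adjusted p 0.256) were not called. The count of 9 was 5 without 10000 ppm replicate 2 or 1250 ppm replicate 1 or 4, and 4 without 1250 ppm replicate 5. In sterol synthesis and uptake, 5 of 16 genes were called lower and 0 higher, against 10.6% of all genes called lower. Mvd, a decarboxylase of the mevalonate pathway, was at 11.4, 10.6, 8.91 and 9.46 CPM at 10000 ppm and at 20.2, 15.8, 16.5 and 20.9 CPM at 1250 ppm. Mvd fell by 0.86 on the log2 scale, without overlap. The sterol count was 3, 3 and 9 without 10000 ppm replicates 2, 3 and 4, 3, 2 and 2 without 1250 ppm replicates 1, 4 and 5, and 1 without 10000 ppm replicates 1 and 2.

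Megakaryocyte and platelet genes were higher at the high dose. Of 14 tested genes, 10 were called higher and 0 lower, against 7.53% of all genes, all 14 were above 0, and the median was 1.43. In 7 of the 14 the doses did not overlap with the high dose above, against 7.33% of all genes. Itga2b (CD41), an integrin of early megakaryocytes and platelets (ENSMUSG00000034664, chromosome 11, 102453297 to 102470122), was at 78.2, 128, 51.9 and 174 CPM at 10000 ppm and at 48.4, 47.0, 34.7 and 25.3 CPM at 1250 ppm. Replicate 4 was the highest, replicate 3 came nearest to the low dose, and the groups did not overlap. The difference was 1.48 ± 0.32 (adjusted p 0.008, edgeR), with 64.4 ± 17.9 CPM at 2500 ppm (SD, n = 6) and 60.3 ± 11.3 CPM in the untreated wild type (SD, n = 3). Gp9, a subunit of the von Willebrand receptor (1.37), Plek (1.26) and Itga2b were among the 4 genes called without 10000 ppm replicates 1 and 2, where the median was 1.22. The chemokines Ppbp (3.41) and Pf4 (1.76) and the platelet tubulin Tubb1 (2.55) were called with all libraries, and Selp (0.19, adjusted p 0.763) and Fli1 (0.11, 0.662) were not. Without 1250 ppm replicate 4 or 5, 6 members were called. The median by library was 1.43, 1.89, 0.44 and 1.58 at 10000 ppm, 0.31, 0.17, -0.11 and -0.51 at 1250 ppm, 0.15 to 0.98 at 2500 ppm, and -0.05 to 0.77 in the untreated wild type.

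Among 15 cytokine receptors, 3 were called higher and 0 lower, against 7.53% of all genes called higher. Among the 3 were Il5ra (1.42), the interleukin-5 receptor of eosinophils, and Kit (0.44), the stem cell factor receptor. Kit was at 492, 484, 694 and 760 CPM at 10000 ppm and at 419, 501, 498 and 376 CPM at 1250 ppm, so that replicates 3 and 4 were high and replicates 1 and 2 overlapped the low dose. Its difference was 0.44 ± 0.14 (adjusted p 0.0458, edgeR) with all libraries and 0.74 (adjusted p 0.0211) without 10000 ppm replicates 1 and 2. Kit was used for the sort, and it was not called without 10000 ppm replicate 3 or 4 or without 1250 ppm replicate 1 or 5. Epor (0.37, adjusted p 0.689) and Csf3r (0.17, 0.665) were not called. Of 16 stem and multipotent progenitor genes, 2 were called higher and 0 lower, with a median of 0.26. This count is not far from the 7.53% of all genes called higher. Erg, a transcription factor of stem cells and megakaryocytes, was at 129, 137, 108 and 123 CPM at 10000 ppm and at 88.3, 94.6, 89.1 and 77.9 CPM at 1250 ppm, higher in all 4 libraries by 0.51 ± 0.13 (adjusted p 0.0152, edgeR). Hlf (0.70) overlapped at 1 library, 1250 ppm replicate 3 (30.9 CPM), and was called in 3 of 8 fits with a library left out. The stem cell count was 1 without 10000 ppm replicate 2 or 1250 ppm replicate 1 or 4. Without 1250 ppm replicate 5 it was 0, and Erg was at an adjusted p of 0.0558.

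None of 11 erythroid regulators was called by edgeR in either direction, with a median of 0.15, 0 were under an unadjusted p of 0.05, and DESeq2 called 0. Gfi1b was at 33.2, 29.6, 28.4 and 69.9 CPM at 10000 ppm and at 27.3, 20.4, 36.4 and 10 CPM at 1250 ppm, and Gata1 at 38.6, 33.3, 43.4 and 97.4 CPM and at 44.7, 36.2, 55.4 and 20.7 CPM. Replicate 4 of the high dose was the highest and replicate 5 of the low dose the lowest library for both regulators. Of 14 red-cell globin and membrane genes, 2 were called higher and 0 lower, against 7.53% of all genes called higher, and the median was 0.93. The count was 5 without 10000 ppm replicate 3 or 4, 1 without 1250 ppm replicate 3, and 0 without 10000 ppm replicate 2 or 1250 ppm replicate 4 or 5. Hbb-bt, a beta-globin, was at 9.26, 420, 7.58 and 9.44 CPM at 10000 ppm and at 18.9, 2.82, 3.17 and 2.24 CPM at 1250 ppm, and Alas2, the erythroid enzyme of heme synthesis, was at 3.10, 118, 1.23 and 2.73 CPM and at 4.84, 0.64, 0.769 and 0.419 CPM. Replicate 2 was far above the other 7 libraries. Neither gene was called without it or without 1250 ppm replicate 3, 4 or 5, and their highest adjusted p over the fits that left out a library was 0.733 for Hbb-bt and 0.691 for Alas2. Reads of near-identical globin genes may also be split between copies.

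Some interferon-stimulated genes were higher at the high dose, in mice that had all received pIpC. Of 29 tested genes, 10 were called higher, 1 lower and 18 neither, with a median of 0.67. Over all tested genes, 7.53% were called higher and 10.6% lower. Ddx58 (RIG-I), a sensor of viral RNA (ENSMUSG00000040296, chromosome 4, 40203773 to 40239828), was at 47.5, 49.2, 31.0 and 34.1 CPM at 10000 ppm and at 20.0, 25.0, 21.7 and 20.2 CPM at 1250 ppm. All 4 high-dose libraries were above the low-dose range, replicates 1 and 2 the most, by 0.90 ± 0.18 (adjusted p 0.00624, edgeR), and the untreated wild type, which had no pIpC, was at 40.4 ± 3.51 CPM (SD, n = 3). Ifi44 (1.21) and the ubiquitin-like Isg15 (1.2) were free of overlap, while Rsad2 (2.14), an antiviral enzyme, was at 28.5 CPM in replicate 2 and at 3.23 to 5.91 CPM in the other high-dose libraries. Bst2 (tetherin), the lower gene, was at 27.7, 32.4, 32.9 and 37.5 CPM at 10000 ppm and at 49.2, 46.3, 46.0 and 51.9 CPM at 1250 ppm, a difference of -0.57 ± 0.15 (adjusted p 0.0193, edgeR). Ifi44 and Bst2 were not called without 1250 ppm replicate 5, Bst2 also not without 10000 ppm replicate 1, and Rsad2 without 10000 ppm replicate 2 or 1250 ppm replicate 5. The count of 11 was 7 and 4 without 10000 ppm replicates 1 and 2, 4, 7 and 2 without 1250 ppm replicates 1, 4 and 5, and 2 without both 10000 ppm replicates 1 and 2, where the median was 0.46. By library the median was 0.68, 0.66, 0.18 and 0.66 at 10000 ppm and 0.39, 0.93 and 1.09 in the untreated wild type.

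Genes of neutrophil granules differed the most of all lists by their median and varied widely among the high-dose libraries. Of 16 tested genes, 10 were called higher and 1 lower, against 7.53% and 10.6% of all genes, with a median of 3.79. But none of the 10 was free of overlap between the groups, while 7.33% of all genes were higher without overlap. Ltf, the lactoferrin of secondary granules, was at 9003, 10810, 1441 and 197 CPM at 10000 ppm and at 189, 289, 146 and 111 CPM at 1250 ppm. Ly6g, which defines mature mouse neutrophils, was at 59.4, 91.9, 8.17 and 1.27 CPM at 10000 ppm and at 0.466, 2.26, 0.668 and 0.356 CPM at 1250 ppm. In replicates 1 and 2 both genes exceeded the low dose many times over, and in replicate 4 they lay within the low-dose range. Their differences were 4.87 ± 1.10 (adjusted p 0.00915, edgeR) and 5.39 ± 1.2 (adjusted p 0.00845, edgeR), and 0 of the 16 genes were called without 10000 ppm replicates 1 and 2. Those 2 libraries were left out because of their neutrophil RNA, so this loss is by construction. Genes of the primary granules, made at the promyelocyte stage, did not share this: Mpo differed by -0.18 (adjusted p 0.549) and Elane by 0.01 (adjusted p 0.985), and Ctsg, cathepsin G, fell by 0.77 on the log2 scale (adjusted p 0.00989, edgeR). Ctsg was at 2053, 1823, 2475 and 1214 CPM at 10000 ppm and at 2880, 2712, 3146 and 4150 CPM at 1250 ppm, with no overlap. The part of the neutrophil RNA in the other lists was not measured. Beside the counts without 10000 ppm replicates 1 and 2, a fit with the late granule score as a covariate was added after seeing the data. With that covariate 482 of 13338 genes were called lower and 341 higher. Called lower were 14 of 25 ER chaperones, 7 of 18 mitotic genes and 4 of 21 replication genes. The proteasome had 4 lower of 34, and mitochondrial ribosomal proteins 5 lower of 69. Of 14 megakaryocyte genes, 5 were called higher and 1 lower. ER translocation and glycosylation had 9 lower of 24, stress sensing and ER-associated degradation 8 of 17, and the respiratory chain 6 of 67. In glycolysis 7 of 12 genes were called lower and 1 higher, and 5 of 29 interferon-stimulated genes were called higher. Some lists kept few or no calls, with 0 aminoacyl-tRNA synthetases, ribosome biogenesis, splice-site recognition or sterol genes. There were 1 gene of the citric acid cycle and 1 p53 target, and no neutrophil gene was higher and 3 were lower. The score is itself a mean of late neutrophil granule genes, so the loss of higher neutrophil genes is by construction. It was also higher in 10000 ppm replicates 1 to 3 than in every 1250 ppm library. A call lost in that fit therefore cannot be assigned to neutrophil RNA or to dose.

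Few markers of other cell types were called, and apart from Il5ra those called were high mainly in 10000 ppm replicates 1 and 2. Over all tested genes, 7.53% were called higher and 10.6% lower. In the summed level of the B-cell list, 10000 ppm replicates 1 and 2 were at 134 and 127 CPM and the other 6 libraries between 51.8 and 77.6 CPM. Ms4a1 (CD20) and Fcmr were called higher by edgeR, 2 of 12 tested genes, at no more than 2.88 CPM in any library, and 0 were called without replicates 1 and 2. The B-cell count was also 0 without 10000 ppm replicate 1 or 2 alone or 1250 ppm replicate 1, 4 or 5, and 1 without 1250 ppm replicate 3. Cd3d and Cd3g of T cells were also called, 2 of 13 T and NK genes, both highest in replicate 2 (2.28 and 1.66 CPM) and neither called without it, and the T and NK count was 0 also without 1250 ppm replicate 1, 4 or 5 and 1 without replicate 3. Of 12 genes of mast cells, basophils and eosinophils, 3 were called higher: Il5ra, and Prg2 and Prg3, granule proteins of eosinophils. Il5ra was at 1.89, 3.5, 1.14 and 1.9 CPM at 10000 ppm and at 0.566 to 0.925 CPM at 1250 ppm, without overlap. Prg2 was at 758, 1197, 154 and 23.4 CPM at 10000 ppm and at 71.9, 67.0, 107 and 153 CPM at 1250 ppm, far above the low dose in replicates 1 and 2 and near or below it in replicates 3 and 4. Prg2 was called in 2 of the 8 fits that left out a library, those without 10000 ppm replicate 3 or 4, and the list had 1 member called without 10000 ppm replicate 1 or 2 or 1250 ppm replicate 1 or 4. None of 16 monocyte and macrophage, 9 stromal and endothelial, 5 plasma cell or 4 MHC class II genes was called by edgeR, with medians of 0.23, 1.05, 0.96 and 0.65. Unadjusted p-values under 0.05 were found in 0, 4, 2 and 0 of them, and DESeq2 called 0, 3, 1 and 0. In 3 further lists the counts were 1 higher and 0 lower of 15 genes of heme synthesis and iron, 0 higher and 1 lower (Hsph1, -0.85) of 12 immediate early and heat shock genes, and 1 higher and 3 lower of 27 genes of the lysosome and its proton pump. The lysosomal count of 4 was 2 without 10000 ppm replicate 1 or any 1 of the 1250 ppm libraries, the immediate early count was 2 without 10000 ppm replicate 4, and 2 plasma cell genes were called without 10000 ppm replicate 3. The higher lysosomal gene was Atp6v0a1, a pump subunit, at 64.8, 78.5, 61.5 and 59.3 CPM at 10000 ppm and at 44.8, 43.2, 41.2 and 41.3 CPM at 1250 ppm. Its groups did not overlap, its difference was 0.63 (adjusted p 0.00304, edgeR), and it was called without replicates 1 and 2 as well.

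Among called protein-coding genes whose doses did not overlap and that averaged 50 or more counts in the group with more, the largest rises included genes nearly silent at 1250 ppm. Cilp, a cartilage matrix protein (ENSMUSG00000042254, chromosome 9, 65265180 to 65280605), was at 4.09, 2.88, 0.408 and 0.488 CPM at 10000 ppm and was at 0, 0.0142, 0 and 0 CPM at 1250 ppm. Decorin (Dcn, chromosome 10), a proteoglycan of connective tissue, was at 2.32, 1.66, 0.639 and 0.139 CPM and at 0, 0.0427, 0 and 0 CPM. Scrg1 was at 1.22, 3.10, 0.444 and 0.0871 CPM and at 0, 0.0284, 0.0167 and 0 CPM. By that selection all high-dose libraries were above all low-dose libraries for these genes, replicates 1 and 2 the most. No low-dose library was above 3 counts, so no fold is given. All 3 genes were called with all libraries, and Scrg1 was not called without replicates 1 and 2 (adjusted p 0.0747, edgeR). Apob, the protein of low-density lipoproteins, was at 1.33, 0.407, 4.56 and 1.03 CPM against 0.0996 to 0.184 CPM, and Sema3d, a secreted guidance factor, was at 1.18, 1.75, 0.977 and 1.85 CPM against 0 to 0.199 CPM. Both were called without replicates 1 and 2, with differences of 4.39 and 3.74 there and of 3.75 ± 0.88 (adjusted p 0.0107, edgeR) and 3.72 ± 0.88 (adjusted p 0.0111, edgeR) with all libraries. With the late granule score as a covariate Apob was not called (3.19, adjusted p 0.0624, edgeR), and Sema3d was (3.99, adjusted p 0.034). The other large rises were Aldh3b3 (5.72), Tmem45a2 (4.46), Plbd1 (3.47), Chad (3.24), Cd33 (2.94), Rap1gap2 (2.88) and Epb42 (2.69). Of these 7, only Rap1gap2 was called without replicates 1 and 2, at 1.16. Tmem45a2 was not called without 1250 ppm replicate 5, nor Epb42, a red-cell membrane protein, without 10000 ppm replicate 2 or 1250 ppm replicate 4 or 5.

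The largest falls were taken under the same conditions, so by selection each was below the low dose in all high-dose libraries. Degs2, a desaturase of sphingolipid synthesis (ENSMUSG00000021263, chromosome 12, 108678711 to 108702315), was at 0.703, 0.876, 1.10 and 0.976 CPM at 10000 ppm and at 4.91, 4.48, 3.79 and 11 CPM at 1250 ppm. Bcat1, the cytosolic branched-chain aminotransferase (ENSMUSG00000030268, chromosome 6, 144993835 to 145076184), was at 2.12, 1.85, 1.63 and 2.79 CPM and at 13.8, 8.10, 6.05 and 14.2 CPM. Cgnl1, a junction protein, was at 1.76, 1.16, 1.44 and 1.78 CPM and at 4.56, 6.67, 11.1 and 7.36 CPM. The high-dose values were tight and the low-dose values 2 or more times higher in every library, with differences of -2.72 ± 0.50 (adjusted p 0.00453), -2.33 ± 0.42 (adjusted p 0.00447) and -2.27 ± 0.41 (adjusted p 0.00447) from edgeR. These 3 were called in all 8 fits with a library left out and without 10000 ppm replicates 1 and 2, but not with the late granule score as a covariate (adjusted p 0.0828, 0.0661 and 0.0561 from edgeR). At 2500 ppm Bcat1 was at 3.19 ± 1.62 CPM (SD, n = 6) and Degs2 at 2.14 ± 1.19 CPM (SD, n = 6), between the other doses. Ambp (-2.79) and D630023F18Rik (-3.06) and Igf2bp3 (-2.80), an RNA-binding protein of fetal tissues, were also called in all 8 of those fits, but not without 10000 ppm replicates 1 and 2 (adjusted p 0.0635, 0.11 and 0.0934 from edgeR). Igf2bp3 was at 3.25 and 2.85 CPM in 1250 ppm replicates 1 and 5 and at 0.484 and 0.318 CPM in replicates 3 and 4. Adgrb1 (-2.98), Etv4 (-2.63), Efemp2 (-2.52), Echdc2 (-2.25) and Smpdl3b (-2.18) lost the call in 1 to 4 of those fits, and Clu (-2.25), the chaperone clusterin, in all 8. The libraries that ended a call were 10000 ppm replicates 1 and 3 and 1250 ppm replicate 5 for Adgrb1, 10000 ppm replicates 1, 2 and 3 and 1250 ppm replicate 1 for Etv4, 10000 ppm replicate 1 and 1250 ppm replicates 1 and 4 for Efemp2, 10000 ppm replicate 1 and 1250 ppm replicate 5 for Echdc2, and 1250 ppm replicate 5 for Smpdl3b.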

How the data were processed

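Total RNA after ribosomal RNA depletion was sequenced, and the authors deposited raw read counts per gene; per the labels' protocols and the submitters' design text, reads were aligned with HISAT2 2.1.0 to GRCm38. The counting tool, annotation release, use of strand and gene filter are not given in the sources used here. Adult libraries of the 4 groups were fitted together with edgeR 4.0.16 (R 4.3.3; filterByExpr, TMM factors, 1 term per group, quasi-likelihood F test, prior count 2), with Benjamini-Hochberg adjustment over 13338 of 27728 genes and a threshold of 0.05. On simulated counts of 13091 genes for this comparison, 45 of 100 genes changed 1.5-fold and 81 of 100 changed 2-fold were recovered, with 4 false calls. The changed genes were drawn from those with a mean above 1 CPM, so recovery at lower levels was not tested. The number of false calls when libraries of a dose differ in neutrophil RNA, as they did here, was not tested. Pairs of libraries within a dose differed by 25 to 487 in chi-square per degree of freedom, which is more than counting error alone gives. This does not show that they came from separate mice, since separate preparations from the same mouse could also differ by more than counting error.

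The libraries, comparison and gene lists were chosen with earlier results of these data known, and 10 lists (ER, proteasome, glycolysis, ribosome, tRNA synthetase, citric acid cycle and lysosome) were added after values were seen. Genes named were the 12 largest rises and falls among called protein-coding genes whose groups did not overlap, provided the higher group averaged 50 or more counts, and up to 6 called members of each list, or up to 2 uncalled members in each direction where a list had none. Chosen after their values were seen were Itgam, Atf6, Hspa5, Calr, Creld2, Hsp90b1, Dnajc3, Canx, Dnajb9, Ern1, Eif2ak3, Ddit3, Mki67, Top2a, Cdk1, Eda2r, Btg2, Mdm2, Ccng1, Cdkn1a, Atf4, Asns, Ppbp, Pf4, Tubb1, Selp, Fli1, Epor, Csf3r, Gata1, Isg15, Mpo and Elane. Positions of genes are from GENCODE M21, and those of promoter windows are from RefSeq. Without strand, reads of overlapping genes cannot be told apart, as for Bax (Gm45808), Degs2 (Evl), Igf2bp3 (Malsu1), Chad (Acsf2), Zrsr1 (Commd1), Syvn1 (Mrpl49), Mrpl44 (Wdfy1) and Pdia6 (Atp6v1c2). Alternatives were DESeq2 1.42.0, other scalings, filters and samples in the fit, a slope on dose, a replicate block, a GC correction, each library left out, and, added after seeing the data, 10000 ppm replicates 1 and 2 left out and the late granule score as a covariate. Some genes are not reported here.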

Additional observations from a re-analysis of the deposited data

Results flagged for a closer look

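In 368 groups of 4 libraries, from 184 named genes, 27 libraries stood apart: the gap to the nearest other library exceeded Dixon's 95% limit, which chance passes in about 1 group in 20. At 10000 ppm, replicate 2 was the library apart in Epb42 (11.5 CPM), Rsad2 (28.5 CPM), Alas2 (118 CPM), Hbb-bt (420 CPM), Fcmr (2.88 CPM) and Cd3g (1.66 CPM), all high, and in Srsf1 (517 CPM), Srsf10 (117 CPM) and Cs (339 CPM), all low. Replicate 4 of that dose was apart in Phlda3 (4.11 CPM) and Gfi1b (69.9 CPM), both high.

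At 1250 ppm, replicate 5 was apart and high in Ambp (2.49 CPM), Degs2 (11 CPM), Mrpl51 (124 CPM), Hyou1 (1490 CPM) and Edem2 (236 CPM), and low in Rrm2b (9.66 CPM). Replicate 1 was high in Etv4 (6.36 CPM), Alas2 (4.84 CPM) and Hbb-bt (18.9 CPM). Replicate 3 was high in Cilp (0.0142 CPM), Dcn (0.0427 CPM), Ly6g (2.26 CPM) and Ms4a1 (0.114 CPM) and low in Sf3a1 (328 CPM) and Nop16 (95.6 CPM), and replicate 4 was low in Plbd1 (5.18 CPM). The Cilp and Dcn values are of at most 3 counts in a group otherwise at 0.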

How the results depend on the processing

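The 2420 called genes became 1533 with no filter on low counts, 1052 with only the 8 compared libraries, 654 with a required log2 fold change of 1, 1376 for a slope on dose over 14 libraries, 769 without 10000 ppm replicates 1 and 2, 823 with the late granule score as a covariate, and 1118 to 2809 with 1 library left out. With the replicate number as a block, 1184 were called. Same-numbered libraries of the 2 doses correlated at -0.04, 0.08 and 0.03 in their deviations, and the other pairs at -0.2 to 0.14. The labels do not say what the numbers mean, so whether they pair libraries is not known. The cause of these shifts was not tested beyond the fewer libraries or genes some settings leave. DESeq2 (2983), RLE factors (2297), a mean of at least 50 counts (2183), 14 libraries (2029), leaving out genes over 1% of a library (2259) and a GC correction (2838) stayed within 1.5 times. In each setting, the genes shared with the 2420 had the same direction. Of 184 named genes, 82 kept direction and side of the threshold without 10000 ppm replicates 1 and 2, and 68 with the covariate. Signs reversed without those 2 libraries in Lmo2 (0.07), Prg2 (-0.13), Irf4 (-0.01) and H2-Aa (0), with the covariate in Lmo2 (0.19), Mpeg1 (-0.23), Adgre1 (-0.21), Prg3 (-0.60), Prg2 (-1.05) and Col1a2 (1.34), and for the slope in Zbtb7a (0.01). With 1 library left out, values ran from -0.11 in Zbtb7a, -0.28 in Cd68, -1.12 in C1qc and -0.99 in Col1a2 to their reversals, in Zbtb7a (0.04 without 10000 ppm replicate 3, 0 without 1250 ppm replicate 4), Cd68 (0.05 without 10000 ppm replicate 3), C1qc (0.15, 0.32 and 0.77 without 10000 ppm replicates 1 and 3 and 1250 ppm replicate 1) and Col1a2 (0.05 without 1250 ppm replicate 4). A sex covariate was not run, since Y-linked reads were found in all 8 compared libraries. Untreated wild type replicate 3, which is in the same fit, had 0 counts of the Y-linked gene Gm29650, against 36 and 34 in replicates 1 and 2. Its effect on the values of that group was not tested.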
